A study of Mus musculus with 6 samples.

Results

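The transcripts described here are those of 9 enzymes, Pgls, Pgd, Rpia, Rpe, Tkt, Taldo1, Me1, Idh1 and Idh2, which carry out the pentose phosphate pathway or produce NADPH by another route. They were chosen by name, with earlier results of these data known. Their symbols were matched to the Ensembl identifiers of the expression table, and all 9 were found among its 23504 genes. The cells were bone marrow–derived macrophages (BMMs) from male C57BL/6 mice aged 6 to 8 weeks, grown out of bone marrow with M-CSF and sequenced as 3 libraries per group after 3 days. The DASA-58 group received DASA-58, an activator of the M2 form of pyruvate kinase (PKM2), together with RANKL, the cytokine that drives BMMs to become osteoclasts. The DMSO group received an equal volume of the solvent. The results of the paper place RANKL in both groups, the wording of its methods leaves RANKL in the DMSO group unclear, and the concentration of DASA-58 is not given for this experiment. Nothing in the labels says that the libraries came from separate mice or cultures, so p-values measure the spread between these libraries only.

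The pentose phosphate pathway branches off glycolysis at glucose 6-phosphate. Its oxidative branch, which includes the lactonase PGLS and then PGD, yields NADPH and ribulose 5-phosphate, and its non-oxidative branch (RPIA, RPE, transketolase and transaldolase) makes ribose for nucleotides or returns carbon to glycolysis. Cells also make NADPH with malic enzyme 1 and isocitrate dehydrogenase 1 in the cytosol and with isocitrate dehydrogenase 2 in mitochondria. NADPH feeds glutathione and thioredoxin reduction, the synthesis of fatty acids and sterols, and the NADPH oxidase with which phagocytes form superoxide. Several of these genes, among them Pgd, Tkt, Taldo1 and Me1, are textbook targets of the transcription factor NRF2, which binds antioxidant response elements.

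Promoter sequences are shown for the 4 genes that differed between the groups, because 3 of them moved in one direction and the fourth in the other. Each stretch gives the 60 bases before the most upstream RefSeq start on GRCm38.p6, written 5′ to 3′ on the strand of the gene, and the Me1 stretch runs 5 bases past the start. Capitals mark TGACNNNGC, the core of the antioxidant response element, in Me1, and GATTGG, which holds an inverted CCAAT box, in Pgd and Taldo1. The letters ccaat also stand, unmarked and on the strand of the gene, in the stretches of Pgd and Idh2, where the base after them differs from that in GATTGG read on the other strand, so that the search for GATTGG does not count them.
Me1, chr9:86695910-86695974, minus strand: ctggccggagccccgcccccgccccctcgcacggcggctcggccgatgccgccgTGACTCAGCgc
Pgd, chr4:149166706-149166765, minus strand: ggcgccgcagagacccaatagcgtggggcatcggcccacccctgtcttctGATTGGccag
Taldo1, chr7:141392100-141392159, plus strand: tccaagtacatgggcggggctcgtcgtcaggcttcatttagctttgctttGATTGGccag
Idh2, chr7:80115351-80115410, minus strand: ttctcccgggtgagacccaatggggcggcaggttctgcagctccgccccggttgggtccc

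Motifs were chosen after the expression values were known, 5 in all, and searched on both strands of windows from 250 bases before to 50 bases from the start on, 1 window per gene for 27025 genes. TGACNNNGC was found in 1 of the 9 windows, that of Me1, and in 12.4% of all windows. Its letters there were TGACTCAGC, beginning 6 bases before the start and running across it. Which factor binds there, if any, was not measured. GATTGG was found in 4 windows, those of Pgd, Taldo1, Idh1 and Rpe, against 16.5% of all windows. In Pgd and Taldo1 it begins at the same place, and both genes carry the same 11 bases, TGATTGGCCAG, immediately before the start. No other window of the 27025 has these 11 bases in that place, and 73 windows hold them somewhere on either strand. This shared stretch was noticed on reading the sequences and was not tested. The starts here are those of RefSeq, and the gene coordinates given below, from GENCODE, place the gene ends elsewhere. By those coordinates the printed stretch of Pgd lies within the gene, those of Me1 and Idh2 lie partly within, and that of Taldo1 lies wholly before it. The shared place of the 11 bases thus rests on the RefSeq starts. The GC box GGGCGG was present in 9 of the 9 windows and in 35.9% of all windows, the TATA box TATAAA in 0 and 14.2%, and the E-box CACGTG in 0 and 7.24%. The windows of the 9 genes held 56.7% to 74.7% G and C, with a median of 61.0% against 52.7% over all windows. All windows include those of genes too low to be tested in these cells, and no motif share over the tested genes alone was taken.

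The values are FPKM, fragments divided by gene length in kilobases and by library size, and for nearly all genes they fell on whole multiples of 1 fragment, from which depths of 18191560 to 18968556 fragments per library were recovered. Libraries of different groups lay farther apart (mean chi-square per gene of 12.3 to 15.1) than libraries of the same group (2.57 to 3.86), and no library of a group repeated another. The macrophage markers were abundant in all 6 libraries. Of 7 osteoclast markers tested 7 fell with DASA-58 (median log2 fold change -0.89, limma), and of 8 macrophage markers 4 rose and 4 did not pass the test (median 0.17). By the same test 4.24% of all genes tested rose and 7.28% fell. In bulk RNA, fewer cells of a type and less RNA per cell cannot be told apart.

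Among the 9 enzymes, Pgd, Taldo1 and Me1 rose with DASA-58, Idh2 fell, and Pgls, Rpia, Rpe, Tkt and Idh1 did not pass the test. The groups were compared with limma, a linear model that shares the estimate of the spread across genes, on log2(FPKM + 1) over the 10965 genes whose mean reached 1 FPKM. A gene was called at a Benjamini-Hochberg adjusted p under 0.05 over all of these, and all 9 enzymes passed the filter. The call rate over all genes tested was 11.5%. The 3 that rose compare with 4.24% of all genes tested called higher, and the 1 that fell with 7.28% called lower. The enzymes were chosen with earlier results of these data known, so these percentages are no independent background for them. These percentages move with the scaling between libraries, since 465 genes rose and 798 fell as deposited, 597 and 504 with each library centred on its median, 594 and 522 with a trimmed mean of log ratios, and 600 and 588 with quantile normalization. The 3 enzymes that rose passed under each of these scalings and under equal library totals, whereas of these 4 scalings Idh2 passed only under equal library totals. In 5 of the 9 enzymes no library of one group fell within the range of the other, against 33.4% of all genes tested, with DASA-58 higher in 4 (11.8% of all genes) and lower in 1 (21.6%). The sizes were modest, from 137% of the DMSO level for Me1 to 90.1% for Idh2. The median log2 fold change was 0.05 over the 9 enzymes and -0.03 over all genes tested.

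**Figure D1:**
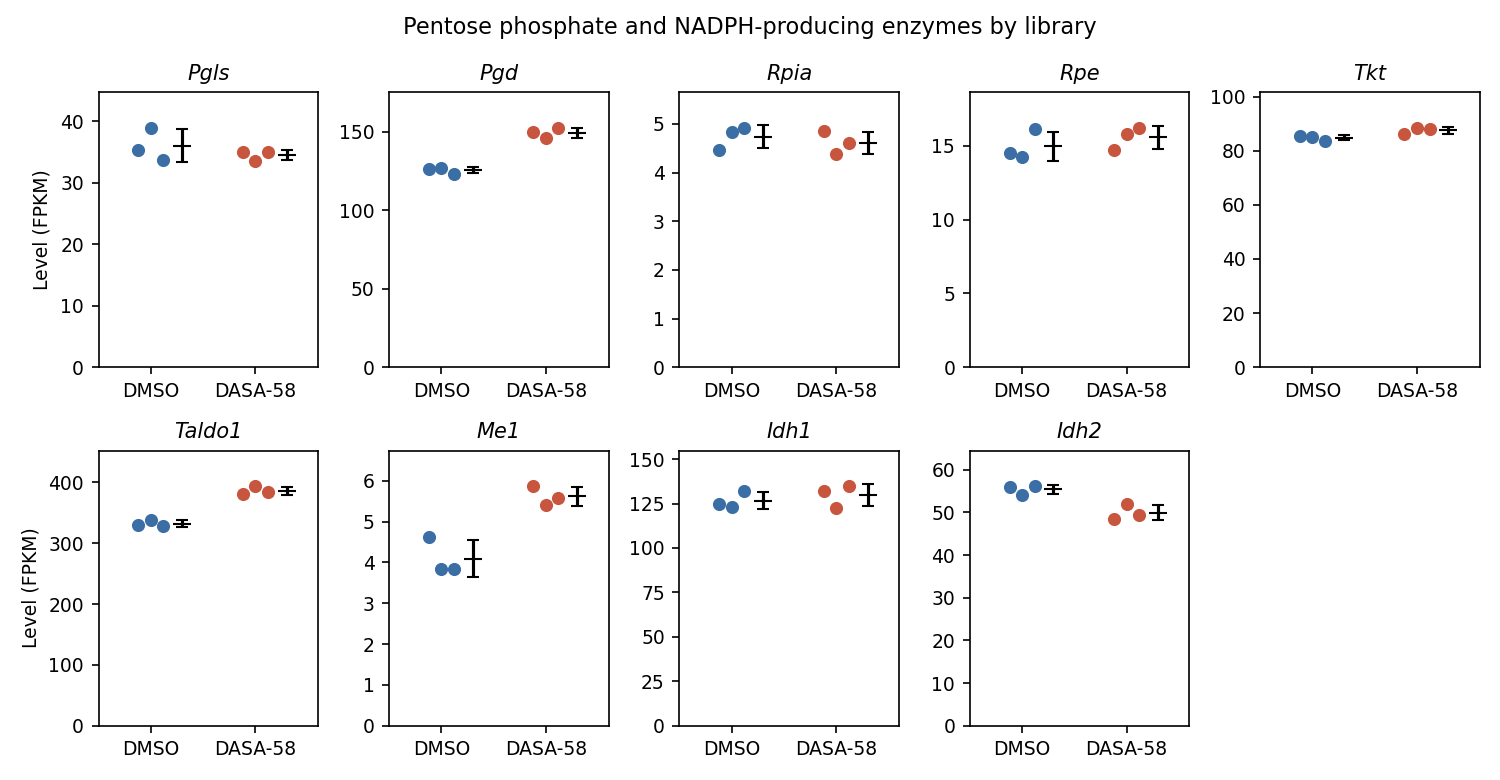
Level of each of the 9 enzymes in FPKM, with 1 point per library, DMSO in blue and DASA-58 in red, and the mean with its SD (n = 3) as a bar beside the points. Each panel has its own axis starting at 0. The DASA-58 points of Pgd, Taldo1 and Me1 lie above all DMSO points, and those of Idh2 below.

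In the oxidative branch, Pgd rose and Pgls did not pass the test. Pgd (ENSMUSG00000028961), on chromosome 4 from 149149991 to 149166771, encodes phosphogluconate dehydrogenase, which makes NADPH and ribulose 5-phosphate. The DMSO libraries held 126, 127 and 123 FPKM and the DASA-58 libraries 150, 146 and 153 FPKM. Its spread within a group was small, with a coefficient of variation of 1.67% in DMSO and 2.11% in DASA-58, so that the groups stood well apart. Pgd had a log2 fold change of 0.25 (SE 0.027, limma adjusted p = 0.00156), the smallest adjusted p of the 9 enzymes. The call held under all 18 alternatives.

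Pgls encodes 6-phosphogluconolactonase, which opens the lactone upstream of PGD. It measured 35.3, 38.9 and 33.7 FPKM in the libraries given DMSO and 35.0, 33.5 and 34.9 FPKM in those given DASA-58, and the groups overlapped. Its log2 fold change was -0.06 with a 95% interval from -0.18 to 0.06 (limma), which leaves out a rise of the size seen in Pgd. Of the annotated exon bases of Pgls, 20.6% are shared with Fam129c on the same strand, a gene at 0.441 ± 0.0560 FPKM under DMSO against 0.411 ± 0.0880 under DASA-58 (mean ± SD of 3 libraries).

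In the non-oxidative branch, 1 of 4 genes passed the test, against 11.5% of all genes tested. Taldo1 (ENSMUSG00000025503), on chromosome 7 from 141392199 to 141402968, encodes transaldolase, which moves carbon units between sugar phosphates, and was the most abundant of the 9 transcripts per length. Its level was 330, 339 and 329 FPKM in the libraries given DMSO and 382, 394 and 384 FPKM in those given DASA-58, and no library of one group entered the range of the other. Taldo1 rose by 0.22 in log2 (SE 0.025, limma adjusted p = 0.00182), and the call held under all 18 alternatives. On the linear scale the DASA-58 mean was 116% of the DMSO mean.

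Tkt encodes transketolase, the other enzyme that links the pathway to glycolysis. It measured 85.6, 85.0 and 83.7 FPKM in the libraries given DMSO and 86.1, 88.4 and 88.1 FPKM in those given DASA-58. The groups did not overlap, but the gap between them was narrow and the gene did not pass the test (log2 fold change 0.05, 95% interval -0.01 to 0.11, limma adjusted p = 0.293). The interval ends below the lower bound of Taldo1, which was 0.16.

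Rpia encodes ribose 5-phosphate isomerase and Rpe the epimerase that makes xylulose 5-phosphate, and both draw on the product of the oxidative branch. Rpia was at 4.46, 4.84 and 4.92 FPKM in the libraries given DMSO and 4.85, 4.38 and 4.60 FPKM in those given DASA-58. Rpe was at 14.5, 14.3 and 16.1 FPKM in the libraries given DMSO and 14.7, 15.8 and 16.2 FPKM in those given DASA-58. For both genes the groups overlapped, and the 95% intervals of the log2 fold change were -0.16 to 0.09 for Rpia and -0.07 to 0.18 for Rpe (limma). Rpia rests on 427 to 489 fragments per library, for which counting alone gives an error of 4.84% at the lowest, so that a change of a few percent was not detectable at this depth. Of the exon bases of Rpe, 17.9% are shared with Kansl1l on the opposite strand, and the use of strand in counting is not stated. Kansl1l stood at 1.24 ± 0.0633 FPKM under DMSO against 1.28 ± 0.0324 under DASA-58 (mean ± SD of 3 libraries).

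**Figure D2:**
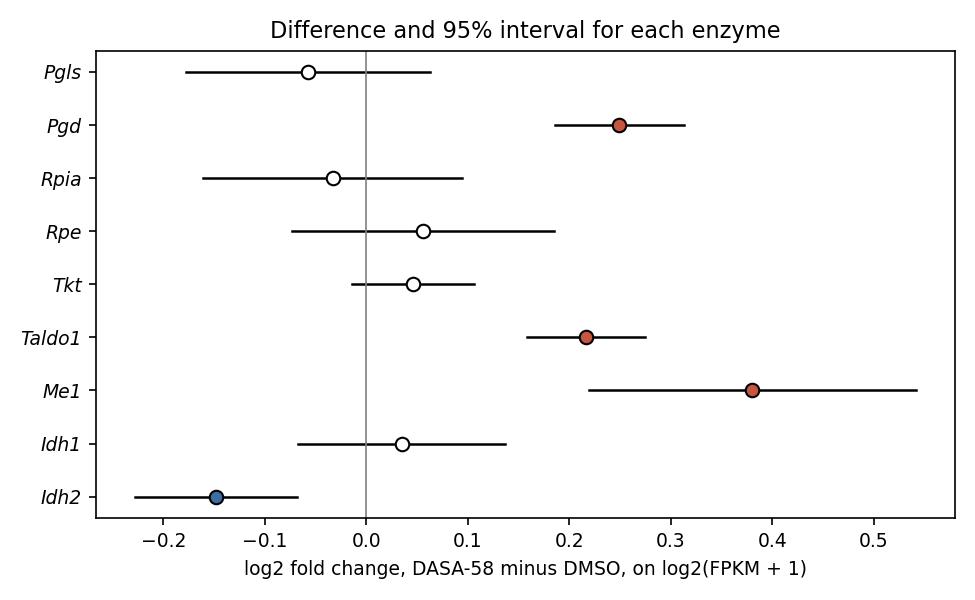
Log2 fold change of each enzyme, DASA-58 minus DMSO, on the log2(FPKM + 1) scale, with the 95% interval from limma as a line. Filled points passed an adjusted p under 0.05, red for higher and blue for lower. The 3 red points lie between 0.22 and 0.38, the blue point of Idh2 at -0.15, and the intervals of the 5 open points include 0.

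The NADPH sources outside the pathway did not move together. Me1 (ENSMUSG00000032418), on chromosome 9 from 86581371 to 86695953, encodes cytosolic malic enzyme, which turns malate into pyruvate, the product of pyruvate kinase as well. It was at 4.62, 3.83 and 3.84 FPKM in the libraries given DMSO and 5.87, 5.41 and 5.58 FPKM in those given DASA-58, and every DASA-58 library was above DMSO replicate 1, the highest of the DMSO libraries. The log2 fold change was 0.38 (SE 0.069, limma adjusted p = 0.0129), the largest of the 9 enzymes and above that of 98.6% of the genes tested. Since the level is low, the pseudocount of 1 narrows this value, and the ratio taken on mean FPKM gave 0.46 in log2.

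Me1 was counted from 269 to 326 fragments per DMSO library and from 379 to 425 per DASA-58 library. Its coefficient of variation was 11.0% in DMSO, against a counting error of 6.10% at the lowest count, and 4.07% in DASA-58. The adjusted p was 0.0516 without DASA-58 replicate 1, 0.0853 without variance shrinkage and 0.0603 with no filter on low values (limma), and a filter at 5 FPKM leaves the gene out.

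Idh1 and Idh2 encode the cytosolic and the mitochondrial NADP-dependent isocitrate dehydrogenase. Idh1 was at 125, 123 and 132 FPKM in the libraries given DMSO and 132, 122 and 135 FPKM in those given DASA-58, with the lowest value of all in a DASA-58 library. Its log2 fold change was 0.03 with a 95% interval from -0.07 to 0.14 (limma). Idh2 (ENSMUSG00000030541), on chromosome 7 from 80094846 to 80115392, was at 55.9, 54.1 and 56.1 FPKM in the libraries given DMSO and 48.4, 51.9 and 49.5 FPKM in those given DASA-58. The highest value under DASA-58 stayed below the lowest under DMSO, and the counts were 2358 to 2442 fragments against 2642 to 2656.

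The log2 fold change of Idh2 was -0.15 (SE 0.034, limma adjusted p = 0.0323), the only one of the 9 that fell. The direction was the same under all 18 alternatives, but the call was lost under 11 of them. Among the scalings the limma adjusted p was 0.0668 for quantile normalization, 0.0601 for median centring and 0.0567 for the trimmed mean. It was 0.0987 and 0.0796 without DMSO replicates 1 and 3, and 0.0998 and 0.103 without DASA-58 replicates 1 and 3 (limma).

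Ratios of transcripts within a library do not depend on scaling between libraries, apart from the pseudocount, and 3 of them set an enzyme against its counterpart in another compartment or another step. With 3 libraries a side the smallest two-sided p that exact permutation allows is 0.1, so that none of these comparisons could pass 0.05. The ratio of Me1 to Me2, a mitochondrial malic enzyme, was 0.136 with DMSO and 0.199 with DASA-58 on the linear scale. On the log2 scale of (FPKM + 1) it was -2.52, -2.61 and -2.71 in the DMSO libraries and -2.05, -2.16 and -2.21 in the DASA-58 libraries, a difference of 0.47 (standard error 0.072, exact permutation test, two-sided, p = 0.1). Me2 itself was at 30.2 ± 1.45 FPKM under DMSO against 28.2 ± 1.06 under DASA-58 (mean ± SD of 3 libraries) and did not pass the test (limma adjusted p = 0.224).

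Idh1 over Idh2 was 1.14, 1.17 and 1.22 with DMSO and 1.43, 1.22 and 1.43 with DASA-58 on the same log2 scale. The groups touched without overlapping, since DASA-58 replicate 2 lay at the upper edge of the DMSO range, and the difference was 0.18 (standard error 0.072, exact permutation test, two-sided, p = 0.1). With a pseudocount of 5 the groups overlapped, and the difference was 0.17 (exact permutation test, two-sided, p = 0.2). Tkt over Rpia overlapped between the groups (difference 0.08, standard error 0.063, exact permutation test, two-sided, p = 0.2). That difference was 0.12 without DMSO replicate 1 and without DASA-58 replicate 1, 0.05 without DMSO replicate 3 and 0.04 without DASA-58 replicate 2. Adjusted over the 3 ratios, the p was 0.15 for Me1 over Me2 and for Idh1 over Idh2 and 0.2 for Tkt over Rpia.

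**Figure D3:**
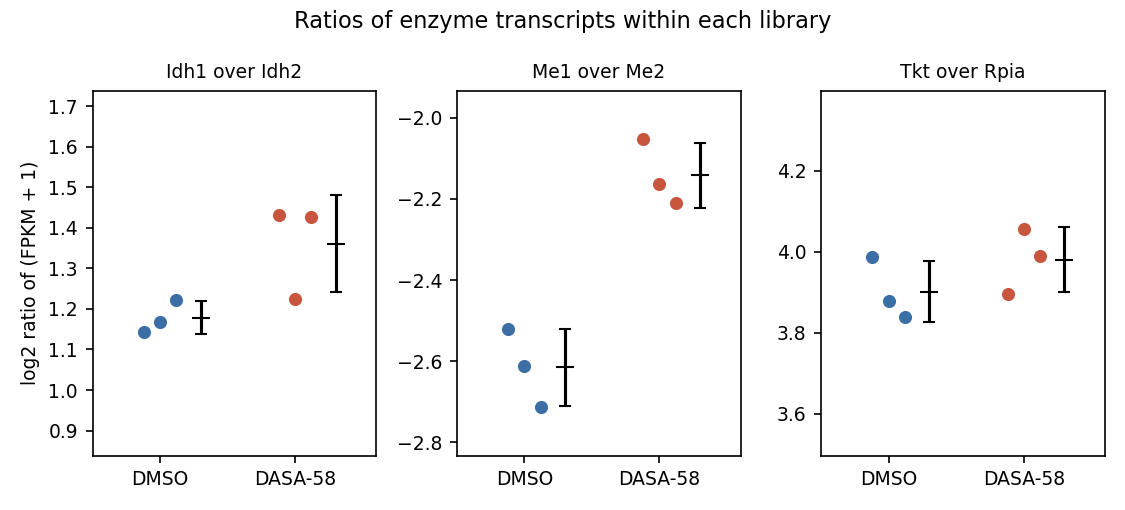
Log2 ratio of (FPKM + 1) between paired enzymes in each library, with DMSO in blue, DASA-58 in red and the mean with its SD (n = 3) as a bar. The axes differ in position and span the same number of log2 units. Me1 over Me2 shows the widest gap between the groups, with a difference of 0.47, and Tkt over Rpia overlaps.

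The order of the levels changed at 2 places. With DMSO the order per length was Taldo1, Idh1, Pgd, Tkt, Idh2, Pgls, Rpe, Rpia and Me1, and the libraries of Idh1 and Pgd overlapped, as did those of Rpia and Me1. With DASA-58, Pgd stood above Idh1 with no overlap, and Me1 stood above Rpia with no overlap. Other neighbours in the order did not overlap in either group. Levels between genes rest on the annotated exon length, which counts all exons of 3 to 9 transcripts per gene.

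The sum over Rpia, Rpe, Tkt and Taldo1 was 437 ± 5.03 FPKM under DMSO against 494 ± 7.46 under DASA-58 (mean ± SD of 3 libraries). The sum over Me1, Idh1 and Idh2 was 186 ± 5.71 FPKM under DMSO against 185 ± 5.08 under DASA-58 (mean ± SD of 3 libraries). The summed level was thus 113% of DMSO in the non-oxidative branch, most of it Taldo1, and 99.6% in the other sources. Within the summed FPKM of the 4 dehydrogenases Pgd, Me1, Idh1 and Idh2, Pgd took 40.3% with DMSO and 44.6% with DASA-58, Idh1 40.6% and 38.8%, Idh2 17.8% and 14.9%, and Me1 1.31% and 1.68%. A share falls when another rises, and the level of Idh1 itself under DASA-58 was 102% of DMSO.

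The lists that follow were drawn up with earlier results of these data known. The shares over all genes set beside them are thus no independent background. A list of 12 further NADPH producers and NAD kinases, outside the 9 enzymes, had 8 tested genes. Of these 0 rose, 2 fell and 6 did not pass the test, with a median log2 fold change of -0.02 (limma). Over all genes tested, 4.24% rose and 7.28% fell. None rose at an unadjusted p under 0.05 either (0 of 8), nor with voom weights on the recovered fragments (0). The share of all genes at an unadjusted p under 0.05 was not counted, here or for the lists below. It is at least 11.5%, since every gene called at the adjusted limit also passes the unadjusted one. The unadjusted counts thus have no full background beside them. Voom weights called 710 of 10957 genes higher and 1290 lower. Nadk, the cytosolic kinase that makes NADP from NAD, went from 172 ± 1.47 to 160 ± 1.55 FPKM (mean ± SD of 3 libraries, limma adjusted p = 0.0329). Mthfd1, a folate enzyme with an NADP-dependent dehydrogenase step, went from 14.6 ± 0.138 to 13.0 ± 0.536 FPKM (mean ± SD of 3 libraries, limma adjusted p = 0.0387). Both calls were lost whichever single library was left out, with an adjusted p of 0.0523 to 0.116 for Nadk and 0.0572 to 0.109 for Mthfd1 (limma), and under centring on the median (0.110 and 0.0739). Nnt, the mitochondrial transhydrogenase that carries a known deletion in the C57BL/6J substrain, had at most 5 fragments in any library. Me3 was not analysed here.

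Among 15 neighbours of the pathway at the level of sugar phosphates, 12 were tested, and 1 rose while 11 did not pass the test (median 0.03). Over all genes tested, 4.24% rose. The gene that rose was Hk3, one of the hexokinases that supply glucose 6-phosphate, at 41.4 ± 0.559 FPKM under DMSO against 47.6 ± 0.173 under DASA-58 (mean ± SD of 3 libraries, log2 fold change 0.20, limma adjusted p = 0.00382). Of the 12, 2 were higher and 2 lower at an unadjusted p under 0.05 (limma). Hk1, Hk2, Gpi1 and Tigar were among those that did not pass the adjusted limit. Hk1 and Tigar were lower and Hk2 higher without overlap between the groups, as 33.4% of all genes tested were in either direction, while Gpi1 overlapped. Quantile normalization called 2 of this list higher, against 600 genes higher in all. Pkm, which encodes the enzyme DASA-58 acts on, did not differ beyond its spread, with a log2 fold change of 0.00 and a 95% interval from -0.06 to 0.05 (limma).

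Reductases spend NADPH on glutathione, thioredoxin, quinones and aldehydes. Of 13 measured, 7 rose, 0 fell and 6 did not pass the test, with a median log2 fold change of 0.16 (limma). Over all genes tested, 4.24% rose and 7.28% fell. At an unadjusted p under 0.05, 8 were higher and 0 lower. Voom called 7 and 0, against 710 and 1290 of 10957 genes in all, while 4 were called higher without variance shrinkage. Gsr, which reduces oxidized glutathione, rose from 85.1 ± 2.44 to 104 ± 1.32 FPKM (mean ± SD of 3 libraries, log2 fold change 0.29, limma adjusted p = 0.0012). Akr1b8, an aldo-keto reductase, rose by 0.35 (adjusted p = 4.15e-04, limma), Ptgr1, a prostaglandin and alkenal reductase, by 0.33 (adjusted p = 0.00304, limma) and Blvrb, the biliverdin reductase B, by 0.39 on the log2 scale (adjusted p = 0.0031, limma). Without variance shrinkage the adjusted p of Blvrb was 0.0565 (limma).

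Of 11 lipid synthesis enzymes that use NADPH, 5 rose, 0 fell and 6 did not pass the test (median 0.21, limma), against 4.24% higher and 7.28% lower over all genes tested. At an unadjusted p under 0.05, 9 were higher and 1 lower. Voom called 8 and 1, against 710 and 1290 of 10957 genes in all. Without variance shrinkage 3 were called higher, and 3 with no filter on low values. The 4 with the smallest p were Cyp51, Sqle and Tm7sf2, which belong to sterol synthesis, and Hsd17b12, which elongates fatty acids. Cyp51 rose by 0.55 and Sqle by 0.48 on the log2 scale (adjusted p = 8.5e-04 and 8.9e-04, limma). Tm7sf2 rose by 0.35 (adjusted p = 0.0116, and 0.0520 with no filter on low values, limma). Hsd17b12 rose by 0.21 (adjusted p = 0.00984, and 0.0677 without variance shrinkage, limma). Fasn, the NADPH-consuming fatty acid synthase, was at 8.66 ± 0.411 and 7.63 ± 0.536 FPKM (mean ± SD of 3 libraries) and did not pass (adjusted p = 0.111, limma).

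Of 13 NADPH oxidase genes, 6 were tested and 0 passed (median 0.02, limma), against 11.5% of all genes tested. At an unadjusted p under 0.05, 1 was higher and 2 lower. Voom, median centring and the trimmed mean each called 1 higher and 0 lower. A filter at 5 FPKM and the fit without DMSO replicate 3 gave the same counts. Voom called 710 of 10957 genes higher in all. Cybb, the catalytic subunit of the phagocyte oxidase, was at 155 ± 6.88 and 173 ± 6.90 FPKM (mean ± SD of 3 libraries, limma adjusted p = 0.0516).

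Of 8 genes in a list of NRF2 itself, its regulators and related factors, 1 rose and 7 did not pass (median -0.01). Over all genes tested, 4.24% were called higher by the same test. Nfe2l2, which encodes NRF2, was the one that rose, from 60.3 ± 2.43 to 68.0 ± 1.28 FPKM (mean ± SD of 3 libraries, log2 fold change 0.17, limma adjusted p = 0.0223). The call of Nfe2l2 was lost without DMSO replicates 1 and 2 (adjusted p = 0.0733 and 0.0505) and without DASA-58 replicates 1, 2 and 3 (0.0611, 0.0552 and 0.0826, limma), as well as with no filter on low values (0.0647), no trend in the variance (0.0611) and no variance shrinkage (0.0911). Keap1, which marks NRF2 for degradation, was at 14.2 ± 0.773 and 13.5 ± 0.200 FPKM (mean ± SD of 3 libraries, limma adjusted p = 0.346).

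**Figure D4:**
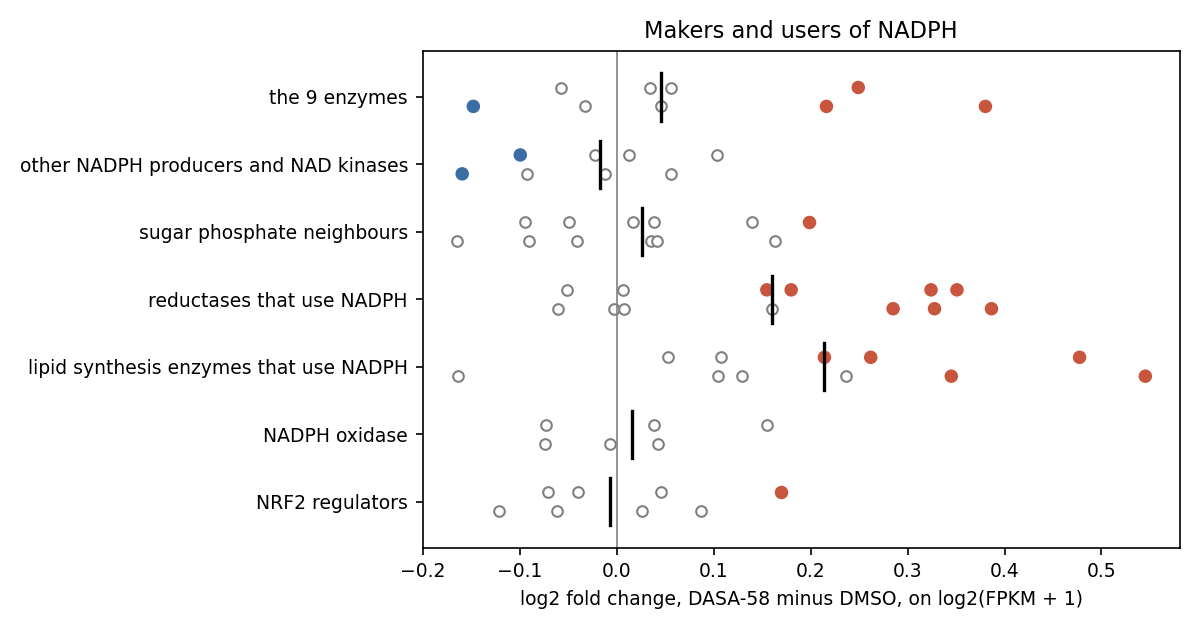
Log2 fold change, DASA-58 minus DMSO, of every tested gene in the 9 enzymes and in 6 lists around them, 1 point per gene, with the median of each list as a black line. Filled points passed an adjusted p under 0.05, red for higher and blue for lower. The reductases (7 of 13) and the lipid synthesis enzymes (5 of 11) hold most of the red points. Over all genes tested, 4.24% were called higher. The enzymes and the lists were chosen with earlier results of these data known.

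The rise of the 3 enzymes went with shifts in cell type markers. The summed level of 8 macrophage markers was 16359 to 17196 FPKM with DMSO and 17316 to 19626 FPKM with DASA-58, of which most was Lyz2, a lysozyme gene that overlapped between the groups and did not pass the test (15156 ± 415 FPKM under DMSO against 16826 ± 1220 under DASA-58, mean ± SD of 3 libraries, limma adjusted p = 0.109). That of 8 osteoclast markers was 753 to 806 and 432 to 449 FPKM. The summed level of 8 neutrophil markers was 174 to 177 FPKM with DMSO and 137 to 143 FPKM with DASA-58. Of its 7 tested members 4 fell, against 7.28% of all genes tested, and Ly6g was at most 0.0583 FPKM in any library. Stromal markers stood at 34.3 to 36.4 and 34.8 to 35.9 FPKM, T and NK cell markers at no more than 1.67 FPKM in sum, B cell markers at no more than 4.10 FPKM, dendritic cell markers at no more than 0.580 FPKM and the 1 erythroid marker in the table, Alas2, at no more than 0.110 FPKM. The part of these shifts in the results on the 9 enzymes was not tested.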

How the data were processed

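RNA from 6 BMM libraries was sequenced, and the authors deposited 1 table of FPKM values for 23504 genes by Ensembl identifier. GEO's processing notes from the submitters list HISAT2 2.1.0, HTSeq 0.6.0 and the build mm8, without roles. Annotation, strand and filters are not given in the sources used here. Symbols (23455 identifiers matched, 49 did not), exon lengths and coordinates came from GENCODE mouse release 21 (GRCm38), whose lengths made 21340 genes, all 9 enzymes included, whole in fragments (tolerance 0.01), and a further 2112 genes came out whole with a fitted length. A count of 0 allows 3 fragments, and counting errors cover counting only. Promoters came from RefSeq GRCm38.p6 and matched 9 of 9 genes.

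Columns were assigned by sample title, with 0 unmapped. log2(FPKM + 1) was fitted with limma 3.58.1 in R 4.3.3 (trend, no block). A fold change on this scale understates that of low genes. The fit was also run on simulated fragments, with the same spread beyond counting for all genes and no shift in scaling between libraries. That run cannot show how the calls depend on either. Ratios were tested by exact permutation in SciPy 1.17.1. Figures used matplotlib 3.10.9. Members and lists were chosen with earlier results of these data known. Some genes, 1 enzyme of the pathway among them, are not reported here and were left out of the lists and their counts. The rule for named genes takes the enzymes, both genes of each ratio, Pkm, Nfe2l2, Keap1, up to 4 called genes of each list by p, and markers whose sums differ. Others (Fam129c, Kansl1l, Hk1, Hk2, Gpi1, Tigar, Fasn, Cybb, Nnt) were named after their values were seen. Alternatives were 2 pseudocounts, 2 filters, 4 scalings, no trend, no shrinkage, the block, voom weights and each library left out.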

Additional observations from a re-analysis of the deposited data

How the results depend on the processing

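The enzymes called higher (3) were 2 without variance shrinkage and with no filter, and 2 to 3 with single libraries left out. The enzyme called lower (1), Idh2, became 0 with no filter, quantile normalization, median centring, the trimmed mean, no trend, no shrinkage and the replicate block, and 0 to 1 with libraries left out. Over all genes, 465 higher became 257 with no filter, 227 without shrinkage, 710 with voom and 272 to 375 with libraries left out. The 798 lower became 372 with no filter, 504 with centring, 522 with the trimmed mean, 515 with no trend, 314 without shrinkage, 1290 with voom and 387 to 603 with libraries left out. The counts fell by more than 1.5 times without DMSO replicate 1 (282 higher, 387 lower) and without DASA-58 replicates 1, 2 and 3 (272, 296 and 276 higher, 413, 467 and 400 lower). In the 6 wider lists, 14 higher became 8 without shrinkage and 11 to 16 with libraries left out, and 2 lower became 1 with quantile normalization and without shrinkage, 0 with no filter, centring, the trimmed mean, no trend and the replicate block, and 0 to 1 with libraries left out. The cause of these changes was not tested. The log2 fold change of Pkm, close to 0, turned positive with quantile normalization (0.045), centring (0.026), the trimmed mean (0.024) and without DMSO replicates 1 and 3 or DASA-58 replicate 1 (0.0062 to 0.0066). The 3 ratios kept their direction under every alternative run for them. The replicate numbers did not pair the libraries, with correlations of same-numbered deviations of -0.015, 0.016 and -0.016, and with the replicate block the 3 higher enzymes kept their calls while 378 genes were higher and 579 lower in all. A filter at 5 FPKM gave no value for Me1 and Rpia. Depth limits Me1 and Rpia most, with 269 to 489 fragments per library.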
